A study of Mus musculus with 60 samples.

Results

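Maturation of wild type erythroblasts in the fetal liver was described here at the embryonic day named E14.5, from cells sorted as R3 against less mature cells sorted as R1/2. The samples were 4 of the 60 in the series, the 2 RNA libraries of R3 and the 2 of R1/2 whose names carry the wild type genotype and E14.5. The R3 cells were CD71 high and Ter119 high. The R1/2 cells were CD71 high with Ter119 negative to medium in the sorting protocol, and negative to low in the sample labels. All embryos were of C57BL/6 background with no treatment named, and the series as a whole compared Gata1s mutant with wild type embryos. For the tests of a difference in maturation, wild type E12.5 cells (3 R3 and 2 R1/2 libraries) and Gata1s E14.5 cells (2 R3 and 3 R1/2 libraries) of the same sorts were used. The sources used here do not say whether embryos were pooled or whether replicates came from separate embryos. The p-values thus reflect only how the libraries in the fit vary, which may be technical. The fit took its spread from all 20 RNA libraries of the series, Gata1s E12.5 cells among them, and not from the 4 described alone. All 4 libraries held RNA of both sexes. The female transcript Xist had 5254 and 2219 reads in R3 libraries and 9512 and 5598 in R1/2 libraries. The Y-linked gene Ddx3y had 231 and 168 in R3 and 605 and 301 in R1/2.

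Erythroblasts divide while they mature, take up iron through the transferrin receptor CD71, fill with hemoglobin and then condense and expel the nucleus. Ter119 is an antibody to a late antigen of the erythroid surface, so its rise orders cells by maturity. In the fetal liver this process gives definitive red cells with adult globins, whereas the earlier primitive red cells from the yolk sac carry embryonic globins. The transcription factors GATA1, TAL1 and KLF1 switch on erythroid genes, and genes of the progenitor state such as Kit are switched off. GATA1s is a short form of GATA1 that lacks the N-terminal transactivation domain.

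The values are normalised counts, reads per gene divided by a factor for each library. The 2 R3 libraries held 15.9 and 6.96 M reads (M for mega) and the 2 R1/2 libraries 27.1 and 10.9 M, and 1 read was worth 1.65 and 4.72 normalised counts in R3 and 0.421 and 1.21 in R1/2. Throughout, replicate 1 is given before replicate 2. Replicate 1 of each sort carries the prefix JC in its library name and replicate 2 the prefix MS, which the labels do not explain. The erythroblast label held in all 4 libraries, with 10 of 10 erythroblast markers present and their summed normalised counts at 1240523 and 1804336 in R3 libraries, against 57682 and 96268 in R1/2 libraries. Replicates differed beyond sampling noise, with a chi-square per gene of 21.7 between the R3 libraries and 173 between the R1/2 libraries. This is a mean over genes in which single entries with many reads weigh heavily. Rn45s, at 94018 and 636940 reads in R1/2 libraries, is among them, so the values do not rank the sorts by noise of a typical gene. The R1/2 replicate 2 library stood apart in the ribosomal RNA entry Rn45s, which took 1.00% and 0.798% of all values in R3 libraries, against 0.348% and 5.87% in R1/2 libraries.

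Genes that differed between the sorts also differed between replicates. Among all genes tested, R1/2 replicate 2 was above R1/2 replicate 1 in 51.5%, and R3 replicate 2 above R3 replicate 1 in 49.5%. Among the 2496 genes that were at least 2-fold higher in R3, these shares were 69.7% and 85.5%. Among the 3026 genes at least 2-fold lower in R3, R3 replicate 2 was above R3 replicate 1 in 483. The part of these replicate differences in any result was not tested, and the values of both replicates are given for the genes described.

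Of 10720 genes tested, 4041 (37.7%) were called higher in R3 and 4461 (41.6%) lower, at an adjusted p under 0.05 by limma. At least 2-fold, 2496 genes (23.3%) were higher and 3026 (28.2%) lower. In either direction, 8502 genes (79.3%) were called. The R3 and R1/2 libraries did not overlap for 9188 genes (85.7%), with R3 above for 4358 (40.7%) and below for 4830 (45.1%), so neither a call nor a clean separation sets a gene apart here, and the sizes below carry the description. The median gene differed by -0.11 on the log2 scale, R3 minus R1/2. Of the 8502 calls, 8493 had the same direction in the JC pair and in the MS pair of libraries. The calls rest on the mean of these same pairs, so that agreement is largely built into the selection and is not replication. The differences in the pairs correlated with r = 0.899 across the 10720 genes, which share libraries and are not independent.

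The balance of the calls depended on the scale. Normalised counts summed to 26.2 and 32.8 M in R3 libraries, against 11.4 and 13.1 M in R1/2 libraries, and the adult beta globin entry alone took 12.9% and 12.7% of them in R3, against 0.324% and 1.13% in R1/2. When each library was instead scaled by its reads outside the globins (the globin-free scale), the median gene stood at -1.17 and the calls became 1788 higher and 7375 lower. Upper-quartile scaling put the median gene at -0.52, with 3016 genes higher and 5735 lower. These scales move genes with many reads by a near-constant amount, about 1.07 log2 units between the deposited scale and the globin-free scale. Genes at few reads move less, such as Spry4 from -6.76 to -7.06 and Acsl6 from -7.03 to -7.49. The medians of the 28 functional gene lists are given on both scales. In bulk libraries, fewer cells of a type and less RNA per cell cannot be told apart.

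**Figure D1:**
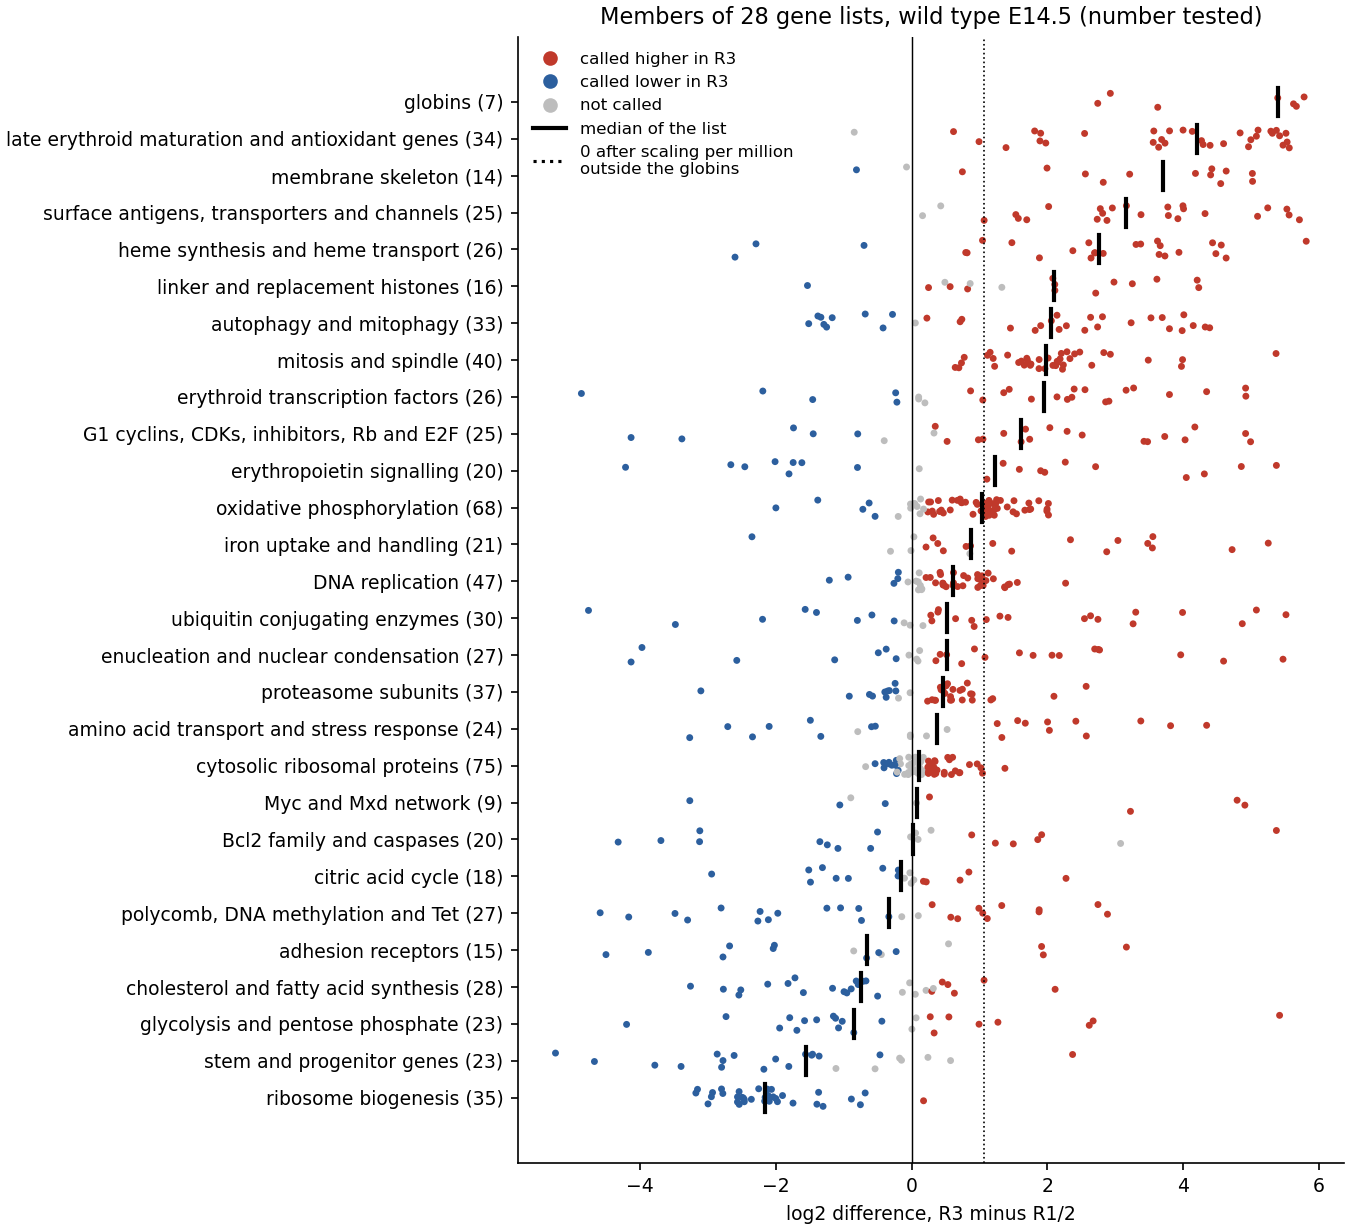
Log2 difference, R3 minus R1/2, of the tested members of 28 gene lists in wild type E14.5 cells, with each list's median as a bar and the number of tested members in parentheses. The list medians run from 5.40 for the globins at the top to -2.16 for ribosome biogenesis at the bottom. The dotted line marks 1.07, where a gene with many reads would stand near 0 on the globin-free scale.

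A gene of the sort and a progenitor gene differed clearly. Tfrc, encoding CD71, was at 126844 and 163841 normalised counts in R3 libraries, against 17693 and 21788 in R1/2 libraries (log2 difference 2.88, SE 0.10, adjusted p = 1.43e-12), although both sorts were gated as CD71 high. Kit, the receptor for stem cell factor on progenitors, was at 117 and 61.4 in R3 and 3236 and 3294 in R1/2 (-5.25, SE 0.26, adjusted p = 3.11e-11). The groups did not overlap for either gene.

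Promoter windows of a pair of genes with large rises and a pair with large falls are shown because those genes mark both ends of the comparison. Each window runs from 250 bases before to 50 bases after the start of the gene in RefSeq (GRCm38.p6), 300 bases in all, and 8722 of the tested genes had at least 1 window. Capitals mark the GATA motif AGATAA or TGATAA and the CACCC motif CCNCACCC, searched on both strands. The windows are Hbb-bs at chr7:103827879-103828178 on the minus strand, Alas2 at chrX:150547167-150547466 on the plus strand, Kit at chr5:75574737-75575036 on the plus strand and Myb at chr10:21160935-21161234 on the minus strand.
Hbb-bs: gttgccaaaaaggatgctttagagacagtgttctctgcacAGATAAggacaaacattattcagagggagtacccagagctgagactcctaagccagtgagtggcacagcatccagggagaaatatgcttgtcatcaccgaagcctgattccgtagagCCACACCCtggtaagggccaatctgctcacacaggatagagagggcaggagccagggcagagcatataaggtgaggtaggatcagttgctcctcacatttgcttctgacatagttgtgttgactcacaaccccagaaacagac
Alas2: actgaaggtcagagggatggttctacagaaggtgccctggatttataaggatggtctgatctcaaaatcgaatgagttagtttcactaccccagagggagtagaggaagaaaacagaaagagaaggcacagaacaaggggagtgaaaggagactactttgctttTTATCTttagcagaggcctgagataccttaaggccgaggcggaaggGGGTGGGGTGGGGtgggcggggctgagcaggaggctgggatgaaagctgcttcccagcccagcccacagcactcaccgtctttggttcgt
Kit: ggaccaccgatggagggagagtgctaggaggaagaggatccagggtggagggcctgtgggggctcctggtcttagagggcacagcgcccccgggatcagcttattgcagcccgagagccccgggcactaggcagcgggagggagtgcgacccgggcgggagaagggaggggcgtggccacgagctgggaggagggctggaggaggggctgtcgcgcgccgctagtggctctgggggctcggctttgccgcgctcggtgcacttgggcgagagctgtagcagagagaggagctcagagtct
Myb: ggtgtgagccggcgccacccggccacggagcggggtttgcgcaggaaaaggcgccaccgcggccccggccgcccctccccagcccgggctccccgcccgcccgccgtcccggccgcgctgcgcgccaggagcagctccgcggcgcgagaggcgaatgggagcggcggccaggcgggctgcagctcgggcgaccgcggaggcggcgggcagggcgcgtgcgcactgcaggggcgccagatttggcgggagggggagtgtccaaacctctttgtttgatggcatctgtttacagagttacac
The Hbb-bs window held 1 GATA and 1 CACCC match, and the Alas2 window 1 GATA and 2 CACCC matches that overlap each other. No match to either was found in the Kit and Myb windows. Among the windows of all genes, the GATA motif was in 11.7% of windows of genes called at least 2-fold higher, 10.1% of those called at least 2-fold lower and 10.2% of all tested, against 18.6% of all 32851 windows. The CACCC motif was in 21.3%, 19.2%, 19.3% and 16.6% of the same sets. A match describes these letters and is not evidence of a binding site.

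**Figure D2:**
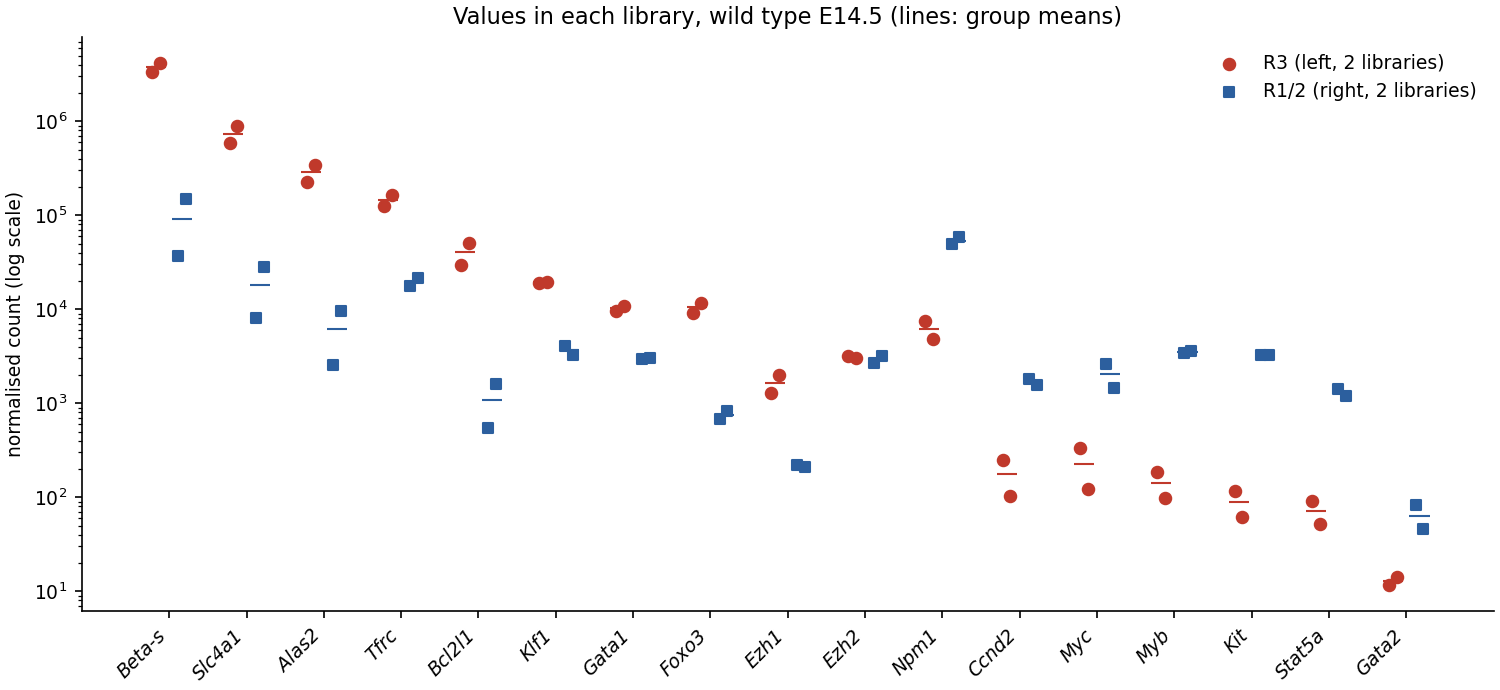
Normalised counts, on a log axis, of 17 genes in each of the 2 R3 libraries (left, red circles) and the 2 R1/2 libraries (right, blue squares), with group means as lines. Beta-s, Slc4a1 and Alas2 stand more than a decade above R1/2 in R3, Ezh2 overlaps, and Myb, Kit and Stat5a stand more than a decade below.

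Globins took 13.1% and 12.9% of all values in R3 libraries, against 0.338% and 1.15% in R1/2 libraries. All 7 tested globin entries were called higher, at a list median of 5.40 on the log2 scale and 4.36 on the globin-free scale. Beta-s, the entry of the adult beta globin gene Hbb-bs shown above, was at 3387680 and 4186590 normalised counts in R3 libraries, against 36930 and 147882 in R1/2 libraries. It averaged 3787140 ± 564919 in R3 and 92406 ± 78455 in R1/2 (SD, n = 2 each), a log2 difference of 5.67 (SE 0.40, adjusted p = 1.89e-09) that was 6.52 in the JC pair and 4.82 in the MS pair. Hbq1b, a theta-like globin gene of the alpha cluster, was at 3429 and 5600 in R3 and 43.4 and 141 in R1/2, and Hbq1a at 488 and 562 in R3 and 5.47 and 23.0 in R1/2. The near-identical pairs Hba-a1 with Hba-a2 and Hbb-b1 with Hbb-b2 fell below the filter on low values. The sources used here do not state how reads that match several copies were counted, so the alpha globins, and the split of beta globin reads, are uncertain.

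The embryonic globins were higher in both R3 libraries than in either R1/2 library, but by very unequal amounts for a pair of them. Hbb-bh1, an embryonic beta-like globin, was at 11642 and 21640 in R3 and 140 and 727 in R1/2 (5.63, SE 0.63, adjusted p = 4.62e-07). Hbb-y, the main embryonic beta-like globin of primitive cells, was at 30357 and 1969 in R3 and 1121 and 917 in R1/2 (2.93, SE 1.11, adjusted p = 0.0233). Hba-x, the embryonic alpha-like zeta globin, was at 4145 and 562 in R3 and 221 and 233 in R1/2 (2.74, SE 1.00, adjusted p = 0.0191). Replicate 1 of R3 was thus far above replicate 2 for both. Without R3 replicate 1 the difference of Hbb-y was 1.37 (adjusted p = 0.331) and that of Hba-x 1.67 (adjusted p = 0.215), and without R1/2 replicate 1 they were 2.39 (adjusted p = 0.137) and 2.12 (adjusted p = 0.14). Without R3 replicate 2 the difference of Hbb-y was 4.49. Neither passed the test on the globin-free scale (1.86, adjusted p = 0.132, for Hbb-y, and 1.67, adjusted p = 0.131, for Hba-x). Hbb-bh2, a rarely used beta-like gene, had 6 and 4 reads in R3 and 1 and 0 in R1/2, a ratio of 46.1 with a 95% counting interval of 8.28 to 1822.

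Heme synthesis and transport rose with the globins. Of 26 genes tested, 23 were higher and 3 lower (median 2.77, 1.70 on the globin-free scale), and the list took 3.37% and 3.78% of all values in R3 libraries, against 0.603% and 0.756% in R1/2 libraries. Alas2, the erythroid enzyme of the first step of heme synthesis, was at 228444 and 342556 in R3 and 2543 and 9687 in R1/2 (5.82, SE 0.38, adjusted p = 6.28e-10), with 6.49 in the JC pair and 5.14 in the MS pair. The mitochondrial transporter Abcb10 was at 47858 and 51269 in R3 and 2769 and 3754 in R1/2. Fam210b, a mitochondrial protein needed for erythroid heme synthesis, rose by 4.64 (SE 0.18), and the porphyrin exporter Abcg2 by 3.62 (SE 0.10). Against that direction, the housekeeping form Alas1 was at 91.0 and 33.1 in R3 and 527 and 141 in R1/2 (-2.29, SE 0.44), a difference of -1.50 without R1/2 replicate 1. Mfsd7b, the heme exporter also called Flvcr1, was at 165 and 85.0 in R3 and 674 and 781 in R1/2 (-2.60, SE 0.25).

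Iron genes rose for the most part on the deposited scale. Of 21 tested, 16 were higher and 1 lower, with a median of 0.87 that became -0.17 on the globin-free scale, where 9 were higher and 9 lower. The genes with the largest rises did so on both scales. Slc25a37, mitoferrin 1, which carries iron into mitochondria, was at 307914 and 429106 in R3 and 5750 and 15716 in R1/2 (5.26, SE 0.20). Ncoa4, the receptor that delivers ferritin to autophagy, was at 90501 and 144746 in R3 and 3027 and 6194 in R1/2 (4.72, SE 0.16). Aco1, which as iron regulatory protein 1 binds iron-responsive elements, was at 291 and 123 in R3 and 1014 and 928 in R1/2 (-2.35, SE 0.29), the only member called lower.

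Genes of the red cell membrane were higher in R3. Of 14 membrane skeleton genes, 12 were higher and 1 lower (median 3.70, 2.63 on the globin-free scale), and of 25 surface antigens, transporters and channels, 23 were higher and 0 lower (3.17 and 2.10). Epb4.2, protein 4.2, was at 48556 and 76403 in R3 and 1187 and 2954 in R1/2. That gene and Tmod1, tropomodulin 1, which caps actin filaments, rose by 5.02 (SE 0.23) and 5.03 (SE 0.23), and Epb4.9, dematin, by 4.64 (SE 0.19). Add3, gamma adducin, was the member called lower, at 428 and 562 in R3 and 863 and 862 in R1/2 (-0.81, SE 0.12). Slc4a1, the anion exchanger band 3, was at 588442 and 881392 in R3 and 8167 and 28370 in R1/2 (5.56, SE 0.34, adjusted p = 3.07e-10), with 6.17 in the JC pair and 4.96 in the MS pair. The fatty acid receptor Cd36 was at 4839 and 11011 in R3 and 65.3 and 290 in R1/2 (5.72, SE 0.57). Gypc, glycophorin C, rose by 3.38 (SE 0.11), Cd24a by 4.01 (SE 0.17), and Icam4, the adhesion antigen of the LW blood group, by 3.17 (SE 0.14).

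Genes of late maturation had the second highest list median. Of 34 late and antioxidant genes, 33 were higher and 0 lower (4.21, 3.13 on the globin-free scale), and the list took 6.35% and 7.87% of all values in R3 libraries, against 0.765% and 1.11% in R1/2 libraries. Bpgm, which makes the hemoglobin ligand 2,3-bisphosphoglycerate, was at 47402 and 81441 in R3 and 874 and 2393 in R1/2 (5.42, SE 0.32). Gpx1, glutathione peroxidase, was at 234743 and 362133 in R3 and 11625 and 16411 in R1/2. Tmcc2 was at 184498 and 281220 in R3 and 2782 and 8300 in R1/2 (5.57, SE 0.27). The exception was the glutaredoxin gene Glrx, at 114 and 127 in R3 and 270 and 175 in R1/2 (-0.85, SE 0.42, adjusted p = 0.077), which was called lower on the globin-free scale (-1.91, adjusted p = 0.000589).

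Most erythroid transcription factors were higher in R3. Of 26 tested, 18 were higher and 5 lower (1.95, 0.88 on the globin-free scale). Gata1 was at 9614 and 10803 in R3 and 2976 and 3015 in R1/2 (1.77, SE 0.08, adjusted p = 2.05e-11). Klf1 was at 19009 and 19614 in R3 and 4096 and 3283 in R1/2 (2.40, SE 0.12), and Tal1 at 35247 and 41146 in R3 and 4893 and 5619 in R1/2 (2.86, SE 0.11). These factors were tight between replicates, and the groups did not overlap. Larger rises were those of Nfe2, a leucine zipper activator of globin genes (4.35, SE 0.14), of Sox6, which acts in the silencing of embryonic globin (4.93, SE 0.24), and of E2f2 (4.92, SE 0.18), an E2F factor of terminal erythroid divisions. Foxo3, a factor for antioxidant and autophagy genes, was at 9217 and 11781 in R3 and 677 and 824 in R1/2 (3.80, SE 0.18). Bcl11a, a repressor of embryonic and fetal globin genes, was at 1115 and 878 in R3 and 2811 and 2629 in R1/2 (-1.46, SE 0.13).

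Genes of stem and progenitor cells were lower in R3. Of 23 tested, 16 were lower and 1 higher (-1.56, -2.54 on the globin-free scale), and the list took 0.0354% and 0.0283% of all values in R3 libraries, against 0.146% and 0.127% in R1/2 libraries. Myb, a transcription factor that keeps progenitors dividing and whose promoter is shown beside that of Kit, was at 185 and 99.2 in R3 and 3403 and 3569 in R1/2 (-4.67, SE 0.23, adjusted p = 2.52e-11). Gata2, which GATA1 displaces as erythroid cells mature, was at 11.6 and 14.2 in R3 and 82.1 and 45.9 in R1/2 (-2.18, SE 0.41, adjusted p = 0.000136), on 7 and 3 reads in R3. The hyaluronan receptor Cd44 fell by 2.78 (SE 0.23), and Zfp36l2, an RNA-binding protein of early erythroid progenitors, was at 1110 and 963 in R3 and 2729 and 3017 in R1/2. Lyl1, a close relative of Tal1, was the only member called higher, at 5421 and 5860 in R3 and 1178 and 1003 in R1/2 (2.37, SE 0.14).

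Erythropoietin signalling genes were called both ways. Of 20 tested, 11 were higher and 8 lower (55% and 40%, against 37.7% and 41.6% of all genes tested). Their median was 1.23, and 0.16 on the globin-free scale. The receptor Epor was at 7322 and 7763 in R3 and 2175 and 1868 in R1/2 (1.90, SE 0.10). The STAT5 target genes Pim1, a survival kinase (4.32, SE 0.15), and Cish and Socs3, feedback inhibitors of cytokine receptors (4.05, SE 0.24, and 4.86, SE 0.29), rose further. Stat5a itself was at 91.0 and 51.9 in R3 and 1406 and 1193 in R1/2 (-4.22, SE 0.26). Bcl2l1, the survival gene encoding BCL-XL, was at 29975 and 50707 in R3 and 544 and 1614 in R1/2 (5.38, SE 0.26). Among 20 genes of the Bcl2 family and caspases, 6 were higher and 9 lower (30% and 45%, against 37.7% and 41.6% of all genes tested). The list median of 0.02 turned to -1.05 on the globin-free scale, where 3 were higher and 13 lower, and to -0.39 with upper-quartile scaling and -0.16 with quantile normalisation. The death gene Bid was at 136 and 70.8 in R3 and 926 and 804 in R1/2 (-3.12, SE 0.25), and Bak1 fell by 1.35 (SE 0.17).

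Adhesion receptors were mostly lower (3 of 15 higher, 9 lower, median -0.66, -1.73 on the globin-free scale). Itga5, the integrin subunit that binds fibronectin, was at 28.1 and 14.2 in R3 and 505 and 448 in R1/2 (-4.50, SE 0.38), and Spn, the sialomucin CD43, at 500 and 430 in R3 and 3128 and 2836 in R1/2. In the Myc network, 4 of 9 were higher and 3 lower (44.4% and 33.3%, against 37.7% and 41.6% of all genes tested). The list median of 0.07 turned negative under upper-quartile scaling (-0.34), quantile normalisation (-0.13) and the globin-free scale (-1.0). Myc was at 331 and 123 in R3 and 2611 and 1458 in R1/2 (-3.27, SE 0.28, adjusted p = 1.92e-08). Mxd1, which competes with MYC for its partner MAX, was at 12491 and 17792 in R3 and 381 and 752 in R1/2 (4.80, SE 0.17).

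Ribosome biogenesis had the lowest median of the 28 functional lists. Of 35 genes tested, 34 were lower and 1 higher (-2.16, -3.24 on the globin-free scale, where 35 were lower). The list took 0.204% and 0.128% of all values in R3 libraries, against 1.74% and 1.66% in R1/2 libraries. Npm1, a nucleolar chaperone, was at 7590 and 4778 in R3 and 49038 and 58682 in R1/2 (-3.15, SE 0.19, adjusted p = 3.01e-10). Ncl, nucleolin, was at 11907 and 11153 in R3 and 47667 and 55491 in R1/2 (-2.16, SE 0.09), and Wdr12, a large subunit assembly factor, at 412 and 302 in R3 and 2060 and 2054 in R1/2 (-2.54, SE 0.13). The calls of the ribosomal protein genes themselves turned with the scale: 29 of 75 were higher, 10 lower and 36 not called, against 1 higher and 70 lower on the globin-free scale. Their median of 0.11 turned negative with upper-quartile scaling (-0.31), quantile normalisation (-1.13) and on the globin-free scale (-0.96). With 1 library left out, 18 (without R1/2 replicate 1) to 32 were higher and 4 (without R1/2 replicate 2) to 14 lower, and there were 19 higher and 6 lower without R3 replicate 2 and 5 lower without R3 replicate 1. Rpsa was at 67575 and 75147 in R3 and 33723 and 35347 in R1/2, a rise of 1.05 (SE 0.11) that reversed to -0.026 on the globin-free scale and -0.94 with quantile normalisation, and Rps29 rose by 1.02 (SE 0.08), with -0.048 and -0.20 on those scales. Rpl3 was at 22822 and 22004 in R3 and 28829 and 30562 in R1/2 (-0.41, SE 0.09). As a share of all values, ribosomal proteins took 4.59% and 3.86% in R3 libraries, against 8.75% and 8.22% in R1/2 libraries.

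**Figure D3:**
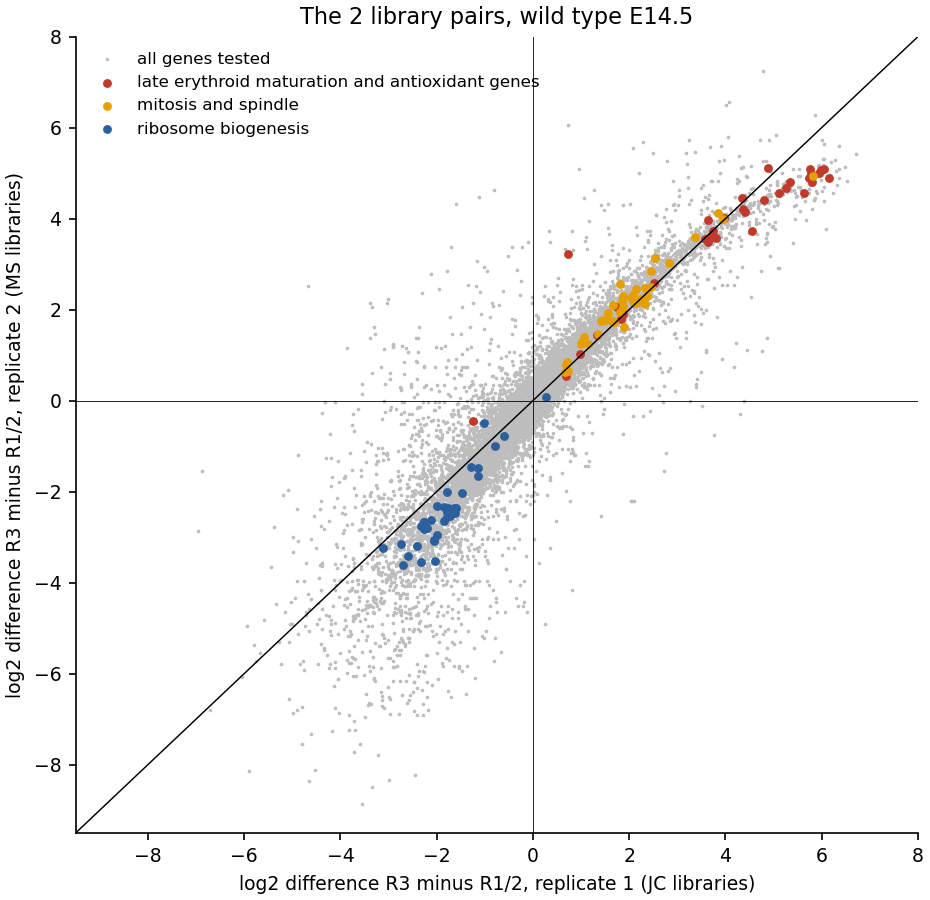
Log2 difference R3 minus R1/2 of each of the 10720 tested genes in the replicate 1 (JC) pair of libraries on the x axis and in the replicate 2 (MS) pair on the y axis, with the late erythroid, mitosis and ribosome biogenesis lists coloured. The pairs correlated with r = 0.899, late genes with the largest rises lie below the diagonal, and ribosome biogenesis genes lie mostly below it too, with larger falls in the MS pair.

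All 40 mitosis and spindle genes tested were called higher (median 1.99, 0.92 on the globin-free scale, where 32 were higher and 4 lower), and the list took 1.79% and 1.86% of all values in R3 libraries, against 0.765% and 0.698% in R1/2 libraries. Cdc25b, the phosphatase that starts mitosis, was at 44004 and 67720 in R3 and 782 and 2221 in R1/2 (5.37, SE 0.22, adjusted p = 4.39e-12). Ube2c, the ubiquitin enzyme of the anaphase promoting complex, was at 25674 and 24067 in R3 and 1773 and 1371 in R1/2 (3.99, SE 0.22). Of the DNA replication genes, 34 of 47 were higher and 5 lower, with a median of 0.61 that became -0.46 on the globin-free scale, where 6 were higher and 29 lower, and -0.03 with quantile normalisation. Tyms, thymidylate synthase, was at 4710 and 4599 in R3 and 1601 and 1829 in R1/2 (1.44, SE 0.09).

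The regulators of G1 changed members. Of 25 tested, 18 were higher and 5 lower (1.61, 0.54 on the globin-free scale). Among D cyclins, which drive entry into S phase, Ccnd3 was at 17965 and 17858 in R3 and 1658 and 1675 in R1/2 (3.43, SE 0.11, adjusted p = 1.11e-12). Ccnd2 was at 248 and 104 in R3 and 1820 and 1565 in R1/2 (-3.38, SE 0.24, adjusted p = 1.49e-09), and Ccnd1, at 26.5 and 28.3 in R3 and 68.2 and 85.8 in R1/2, fell by 1.45 (SE 0.27). The cyclin D partner Cdk6 was at 41.4 and 18.9 in R3 and 633 and 408 in R1/2 (-4.13, SE 0.41). The CDK4 and CDK6 inhibitor Cdkn2d, p19INK4d, was at 5949 and 6672 in R3 and 132 and 292 in R1/2 (5.00, SE 0.30), and the E2F repressor E2f8 rose by 2.51 (SE 0.11).

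Enucleation and nuclear condensation genes gave 16 of 27 higher and 7 lower (59.3% and 25.9%, against 37.7% and 41.6% of all genes tested). Their median of 0.52 became -0.55 on the globin-free scale, where 10 were higher and 15 lower, and -0.28 with quantile normalisation. Xpo7, a nuclear export receptor needed for condensation, was at 172207 and 307974 in R3 and 2787 and 9622 in R1/2 (5.47, SE 0.32), with 5.95 in the JC pair and 5.00 in the MS pair. Trim58, an E3 ligase acting on dynein in enucleation, was at 4890 and 7300 in R3 and 175 and 344 in R1/2, and Wdr26, of the CTLH E3 ligase, rose by 3.97 (SE 0.16). Falling members were Kat2a, the histone acetyltransferase GCN5, at 154 and 61.4 in R3 and 1658 and 1436 in R1/2 (-3.97, SE 0.26), and Lmnb2, lamin B2, at 190 and 94.4 in R3 and 856 and 756 in R1/2 (-2.58, SE 0.21).

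Autophagy and mitophagy genes rose in most cases (23 of 33 higher, 9 lower, median 2.06, 0.99 on the globin-free scale). Bnip3l, the receptor NIX that removes mitochondria from reticulocytes, was at 45893 and 86966 in R3 and 2989 and 5302 in R1/2 (3.99, SE 0.19, adjusted p = 1.61e-11). The lysosomal protease Ctsb was at 72306 and 108441 in R3 and 3420 and 5682 in R1/2, and the LC3 protease gene Atg4d rose by 3.69 (SE 0.13). Atg5, of the LC3 conjugation machinery, was at 313 and 208 in R3 and 640 and 691 in R1/2 (-1.38, SE 0.15).

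Polycomb, DNA methylation and Tet genes were called both ways. Of 27 tested, 11 were higher and 14 lower (40.7% and 51.9%, against 37.7% and 41.6% of all genes tested). Their median was -0.33, and -1.41 on the globin-free scale, where 4 were higher and 19 lower. Ezh1, a catalytic subunit of polycomb complex PRC2, was at 1290 and 1988 in R3 and 222 and 209 in R1/2 (2.89, SE 0.17, adjusted p = 1.62e-10). Ezh2, the alternative catalytic subunit, was at 3209 and 3046 in R3 and 2667 and 3194 in R1/2, groups that overlapped (0.10, SE 0.08, adjusted p = 0.257), and its sign turned under upper-quartile scaling (-0.32), quantile normalisation (-0.69) and on the globin-free scale (-0.97). The H3K27 demethylase Kdm6a rose by 2.75 (SE 0.16). The maintenance methyltransferase Dnmt1 was at 12607 and 14014 in R3 and 6723 and 6137 in R1/2, a rise of 1.05 (SE 0.10) that was -0.022 on the globin-free scale and -0.18 with quantile normalisation. The de novo enzymes fell: Dnmt3b was at 29.8 and 28.3 in R3 and 500 and 581 in R1/2 (-4.17, SE 0.32), and Dnmt3a at 111 and 66.1 in R3 and 646 and 567 in R1/2 (-2.81, SE 0.27). The PRC1 gene Bmi1 was at 189 and 156 in R3 and 768 and 852 in R1/2 (-2.23, SE 0.16). Of 16 linker and replacement histone genes, 12 were higher and 1 lower (2.10, 1.03 on the globin-free scale), with H3f3a, encoding histone H3.3, at 76725 and 106712 in R3 and 7480 and 12028 in R1/2. The member called lower was H2afy, encoding macroH2A1, at 407 and 373 in R3 and 1241 and 1030 in R1/2.

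Protein degradation genes held some of the largest rises. Of 30 ubiquitin conjugating enzymes, 19 were higher and 8 lower (63.3% and 26.7%, against 37.7% and 41.6% of all genes tested). Their median of 0.52 became -0.55 on the globin-free scale, where 11 were higher and 16 lower. Ube2l6 was at 53865 and 85488 in R3 and 760 and 2880 in R1/2 (5.52, SE 0.31). Ube2o, which marks ribosomal proteins for degradation in reticulocytes, was at 51040 and 89582 in R3 and 1250 and 3184 in R1/2 (5.08, SE 0.25). Ube2e1 was at 48.0 and 18.9 in R3 and 380 and 318 in R1/2 (-3.48, SE 0.27). Of 37 proteasome genes, 25 were higher and 10 lower, with a median of 0.46 that turned to -0.61 on the globin-free scale, where 2 were higher and 32 lower, and -0.42 with quantile normalisation. The activator gene Psme4 was at 11270 and 15662 in R3 and 2862 and 3362 in R1/2, and the immunoproteasome subunit gene Psmb10 at 103 and 51.9 in R3 and 671 and 603 in R1/2 (-3.11, SE 0.22).

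Metabolic lists moved apart. Of 23 glycolysis and pentose phosphate genes, 13 were lower and 8 higher (56.5% and 34.8%, against 41.6% and 37.7% of all genes tested). Their median was -0.85, and -1.92 on the globin-free scale. Hk2, a hexokinase, was at 38 and 18.9 in R3 and 571 and 458 in R1/2 (-4.20, SE 0.38), and Aldoa, aldolase A, was at 2887 and 1964 in R3 and 8847 and 7730 in R1/2 (-1.80, SE 0.16). Gpi1, the second enzyme of glycolysis, fell by 1.94 (SE 0.14), and Pgd, of the pentose phosphate pathway, by 1.58 (SE 0.10). Bpgm, given above, went the other way, as did the lactate transporter Slc16a1, at 25038 and 34308 in R3 and 4085 and 5572 in R1/2 (2.62, SE 0.09).

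Oxidative phosphorylation genes gave 54 of 68 higher and 5 lower, at a median of 1.04 that stood at -0.03 on the globin-free scale, where 13 were higher and 30 lower. Cox6a1, of cytochrome oxidase, was at 7265 and 7517 in R3 and 1918 and 1793 in R1/2 (1.99, SE 0.12), and Ndufb5, of complex I, at 524 and 378 in R3 and 1147 and 1177 in R1/2 (-1.38, SE 0.14). Citric acid cycle genes were called both ways (5 of 18 higher, 9 lower, -0.15, -1.22 on the globin-free scale). Those shares were 27.8% and 50.0%, against 37.7% and 41.6% of all genes tested. Suclg2, a succinate-CoA ligase subunit, was at 414 and 165 in R3 and 1922 and 2129 in R1/2 (-2.95, SE 0.27). Cholesterol and fatty acid synthesis genes were mostly lower (17 of 28 lower, 6 higher, -0.75, -1.81 on the globin-free scale). Fasn, fatty acid synthase, was at 711 and 297 in R3 and 4847 and 4013 in R1/2 (-3.26, SE 0.24), and Dhcr7, of the last step of cholesterol synthesis, fell by 2.77 (SE 0.16). Amino acid transport and stress genes gave 11 of 24 higher and 8 lower (45.8% and 33.3%, against 37.7% and 41.6% of all genes tested). Their median of 0.37 turned to -0.61 on the globin-free scale, where 9 were higher and 12 lower, and -0.01 with upper-quartile scaling. Ppp1r15a, which directs dephosphorylation of the translation factor eIF2-alpha, was at 31392 and 49938 in R3 and 1405 and 2685 in R1/2 (4.35, SE 0.25). The glutamine transporters went opposite ways, with Slc38a5 at 5603 and 6360 in R3 and 944 and 1061 in R1/2 (2.58, SE 0.10), and Slc38a1 at 807 and 307 in R3 and 3438 and 3092 in R1/2 (-2.71, SE 0.29).

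Among all genes with a mean of at least 50 normalised counts, the largest rises included interferon-induced genes. Rsad2, the antiviral protein viperin, was at 6579 and 18712 in R3 and 61.9 and 435 in R1/2 (6.07, SE 0.90, adjusted p = 1.16e-05), and Isg15, a ubiquitin-like protein, at 289 and 231 in R3 and 3.37 and 3.63 in R1/2 (5.85, SE 0.67). Fras1, an extracellular matrix protein, was at 361 and 397 in R3 and 3.37 and 7.25 in R1/2, and Fhl1, a LIM domain protein, at 199 and 307 in R3 and 2.11 and 4.83 in R1/2. Runx1t1, a corepressor of the ETO family, rose by 5.68 (SE 0.35), and Fam46c by 5.67 (SE 0.30).

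The largest falls were of genes near or at 0 reads in R3. Spry4, an inhibitor of growth factor signalling, had 0 reads in both R3 libraries and 104 and 111 normalised counts in R1/2, so R3 was at least 11.3-fold lower, taking 3 reads per library as the limit that 0 reads allow. Acsl6, an acyl-CoA synthetase, had 1 and 0 reads in R3 and 158 and 283 normalised counts in R1/2, a ratio of 180 with a 95% counting interval of 32.3 to 7104. S1pr4, a sphingosine phosphate receptor, had 2 and 0 reads in R3 and 120 and 105 normalised counts in R1/2, a ratio of 45.9 (12.7 to 379), and Ankrd13b 9 and 0 reads in R3 and 367 and 277 normalised counts in R1/2, a ratio of 29.2 (15.4 to 63.8). These intervals cover counting error only. The 12 largest falls by fitted size all had 0 reads in R3 replicate 2, the shallowest library.

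Among the microRNA hairpin entries of the table were Mir144 and Mir451, picked out after their values were seen. These erythroid microRNAs are made from neighbouring hairpins of the same transcript. Their mature sequences, from RefSeq (GRCm38.p6, chromosome 11, plus strand), are shown with the seed, bases 2 to 8, in capitals. They lie at chr11:78073186-78073207 for miR-451a, chr11:78073010-78073032 for miR-144-5p and chr11:78073047-78073066 for miR-144-3p.
mmu-miR-451a: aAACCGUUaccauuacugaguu
mmu-miR-144-5p: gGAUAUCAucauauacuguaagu
mmu-miR-144-3p: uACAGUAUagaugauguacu
The 3 seeds differ from each other. The entry Mir451 was at 433 and 637 in R3 and 11.8 and 30.2 in R1/2 (4.72, SE 0.36, adjusted p = 3.97e-09), on at least 25 reads in every library. Mir144 was at 33.1 and 80.3 in R3 and 2.53 and 8.46 in R1/2 (3.19, SE 0.51), on 20 and 17 reads in R3 and 6 and 7 in R1/2. The libraries were of polyadenylated RNA, so these reads come from longer transcripts that span the hairpins, not from mature microRNAs, and they do not tell the arms apart.

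Markers of other cell types took at most 0.0731% of all values in every library, except the neutrophil and monocyte markers of R1/2 replicate 1 at 0.199% and the embryonic globins. The erythroblast markers took 4.74% and 5.51% in R3 and 0.507% and 0.735% in R1/2. The 15 macrophage markers took 0.00198% and 0.00218% of all values in R3 libraries, against 0.00111% and 0.00111% in R1/2 libraries, and all 8 that were tested were called higher (median 2.06). That count was 2 on the globin-free scale (median 1.02), 3 without R3 replicate 2, 4 without R1/2 replicate 1 or without R1/2 replicate 2, and 7 without R3 replicate 1. Csf1r was at 132 and 113 in R3 and 42.1 and 19.3 in R1/2 (2.06, SE 0.66, adjusted p = 0.00911, and 1.47, adjusted p = 0.112, without R1/2 replicate 2). The 13 hepatoblast markers summed to 3930 and 359 in R3 and 283 and 115 in R1/2, led by albumin and by Afp, alpha-fetoprotein (1504 and 109 in R3, 64.0 and 21.8 in R1/2). Of the 15 megakaryocyte markers, at 19110 and 17126 in R3 and 722 and 1051 in R1/2, Tubb1, a beta tubulin of platelets, made up 18054 and 16002 in R3 and 352 and 701 in R1/2, while Selp was at 0 reads in all 4 libraries and Gp1bb and Gp6 at 0 in R1/2.

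Neutrophil and monocyte markers differed widely between the R1/2 replicates, with sums of 3821 and 1700 in R3 and 22603 and 892 in R1/2, and limma called 0 of 17, with 0 at an unadjusted p under 0.05, whereas edgeR called 7 of them lower in R3 and DESeq2 6. By limma, 13 were lower without R1/2 replicate 2 and 2 higher without R1/2 replicate 1. Mast cell markers summed to 72.8 and 47.2 in R3 and 230 and 67.7 in R1/2, with Fcer1a, Mcpt4, Tpsab1 and Tpsb2 at 0 reads in all 4 libraries. Endothelial markers summed to 253 and 208 in R3 and 718 and 679 in R1/2, lymphoid markers to 41.4 and 66.1 in R3 and 54.7 and 271 in R1/2, and mesenchymal markers to 28.1 and 9.44 in R3 and 38.3 and 32.6 in R1/2. Embryonic globins of primitive cells were at 46155 and 24190 in R3 and 1483 and 1878 in R1/2. The part of these cells in the results above was not tested.

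**Figure D4:**
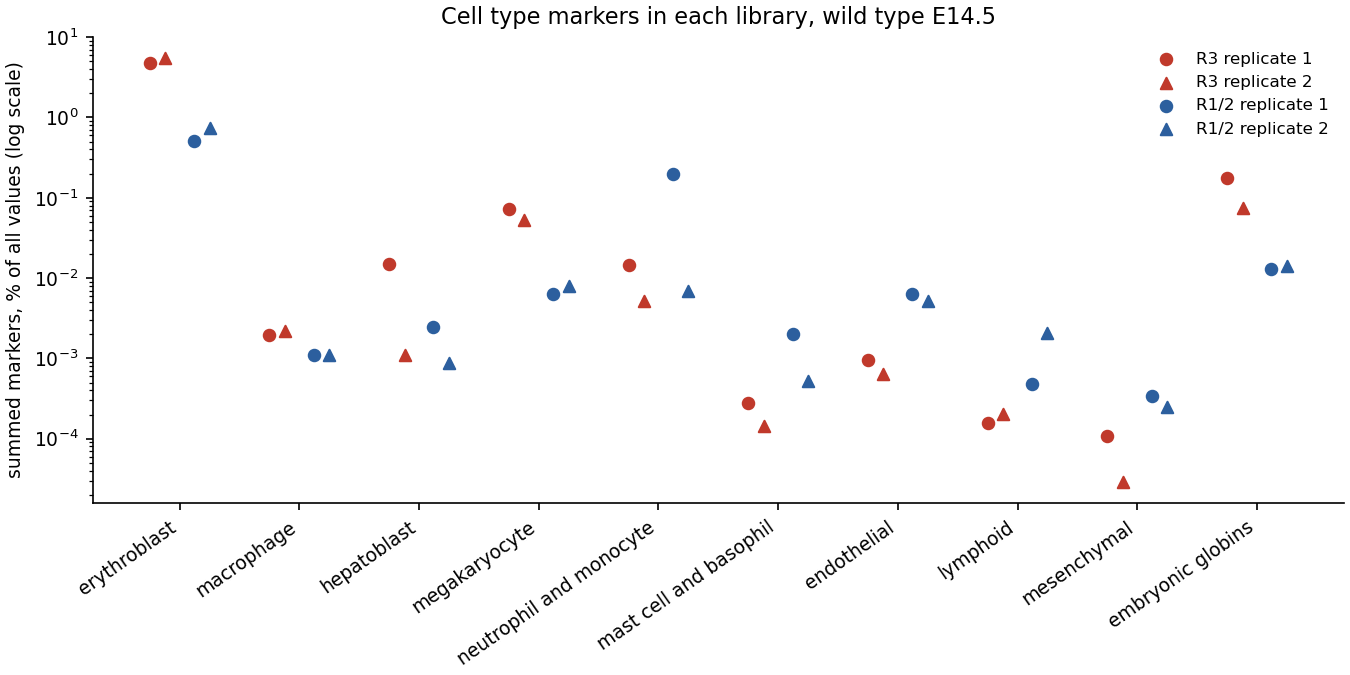
Summed normalised counts of 10 marker lists as a percentage of all values, on a log axis, in each wild type E14.5 library (R3 left in red, R1/2 right in blue, circles replicate 1, triangles replicate 2). Erythroblast markers stand at 4.74% and 5.51% in R3 and 0.507% and 0.735% in R1/2, whereas the neutrophil and hepatoblast sums of the sorts overlap.

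The E14.5 maturation difference was close to that of E12.5, with which it shares no library. Of the 8502 genes called at E14.5 and the 8043 called at E12.5, 7467 were called in both in the same direction and 14 in opposite directions, and the differences correlated with r = 0.947 across the 10720 genes. The test of the difference between the days called 832 genes (7.76%), 519 higher (4.84%) and 313 lower (2.92%) in E14.5 minus E12.5, and in 475 of them the gene was higher in R3 at both days with the larger rise at E14.5. Among ribosome biogenesis genes 0 were higher and 19 of 35 lower in this test, that is, fell further at E14.5, and the list medians were -2.16 at E14.5 and -1.48 at E12.5. Ncl fell by 2.16 at E14.5 and 1.51 at E12.5 (difference -0.65, SE 0.13, adjusted p = 0.0103, but 0.0698 without E14.5 R3 replicate 2 and 0.0551 without E12.5 R1/2 replicate 1). The difference was positive for 9 of 33 autophagy genes and 0 negative, and for 13 of 68 oxidative phosphorylation genes with 1 negative. These list counts were made on the deposited scale only. On the globin-free scale the median gene of the test between days moved from -0.006 to -0.43, with 138 genes higher and 2892 lower. Bnip3l rose by 3.99 at E14.5 and 2.91 at E12.5 (difference 1.08, SE 0.25, adjusted p = 0.0206, but 0.0737 without E14.5 R1/2 replicate 1, 0.131 without E14.5 R3 replicate 2 and 0.126 without E12.5 R1/2 replicate 1).

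The lactate transporter Slc16a1 rose more at E14.5 (2.62) than at E12.5 (1.51), a difference of 1.11 (SE 0.13, adjusted p = 0.000799). Slc23a2, a vitamin C transporter, was at 8.27 and 9.44 in E14.5 R3 and 147 and 124 in E14.5 R1/2, whereas at E12.5 it was at 184, 113 and 83.8 in R3 and 194 and 230 in R1/2 (difference -2.98, SE 0.43, adjusted p = 0.0027). Glrx, not called at E14.5, was at 949, 1654 and 2023 in E12.5 R3 and 180 and 230 in E12.5 R1/2 (difference -3.72, SE 0.57, adjusted p = 0.00357). The calls of Slc16a1, Slc23a2 and Glrx held when each of the 9 libraries was left out in turn. They were lost with only the compared groups in the fit or with JC libraries alone. The JC fit has only 1 library of each wild type E14.5 sort and of E12.5 R1/2. The number of genes called in this test ranged from 53 to 1205 higher and 21 to 1507 lower when 1 library was left out, lowest without E14.5 R3 replicate 2 and highest without E14.5 R3 replicate 1, and limma called 0 with only the compared groups in the fit (1714 genes at an unadjusted p under 0.05).

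In Gata1s cells of E14.5 the same maturation was seen for most genes. Of the 8502 genes called in wild type and the 8757 called in Gata1s cells, 7502 were called in both in the same direction and 149 in opposite directions, with r = 0.910 across the 10720 genes. The difference itself, wild type minus Gata1s, was called for 1687 genes (15.7%), 923 higher (8.61%) and 764 lower (7.13%). Of these, 446 had opposite signs in wild type and Gata1s cells. Both Gata1s R3 libraries carry the prefix MS. Within MS libraries alone, neither sort of wild type cells has a replicate, so no count of calls is given for them. Beyond the prefix term in the fit, the part of the prefix in these calls was not tested.

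**Figure D5:**
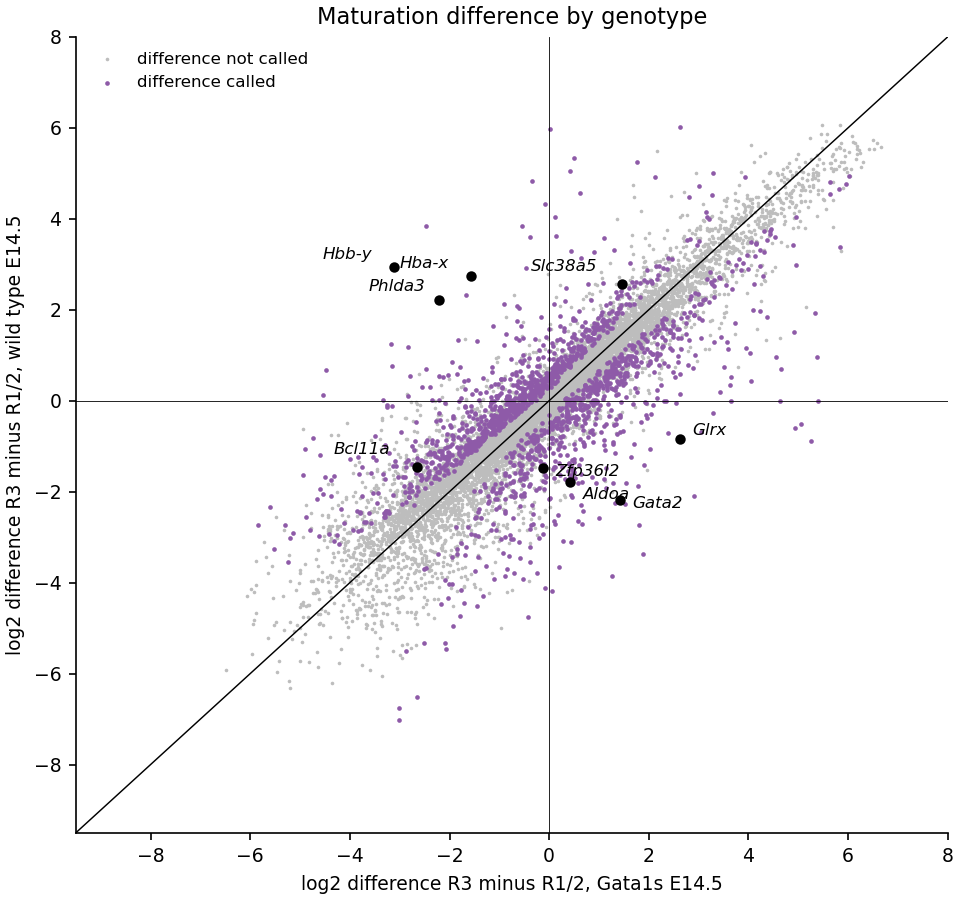
Log2 difference R3 minus R1/2 of each of the 10720 tested genes in wild type (y axis) and Gata1s cells (x axis) of E14.5, with the genes whose difference between genotypes was called in purple and the diagonal marking equal differences. Hbb-y, Hba-x and Phlda3 lie far above the diagonal, and Gata2, Aldoa and Glrx far below it.

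Gata2 showed the opposite course. It was at 11.6 and 14.2 in wild type R3 and 82.1 and 45.9 in wild type R1/2, whereas in Gata1s cells it was at 384 and 447 in R3 and 149, 160 and 156 in R1/2 (difference -3.60, SE 0.56, adjusted p = 0.000417). Aldoa fell in wild type but was at 13408 and 15404 in Gata1s R3 and 11175, 11689 and 11268 in Gata1s R1/2 (difference -2.22, SE 0.22, adjusted p = 7.01e-06), and 8 of 23 glycolysis and pentose phosphate genes were lower and 4 higher in this test. Zfp36l2 fell by 1.47 in wild type and stood at -0.13 in Gata1s (difference -1.34, SE 0.12, adjusted p = 2.1e-06). Phlda3, a p53 target that inhibits AKT, was at 486 and 453 in wild type R3 and 140 and 71.3 in wild type R1/2, against 7.38 and 8.08 in Gata1s R3 and 42.9, 41.0 and 31.9 in Gata1s R1/2 (difference 4.42, SE 0.64, adjusted p = 0.000239). DNA replication genes were called in 17 of 47 cases, all with the higher difference in wild type. Slc38a5 rose by 2.58 in wild type and 1.47 in Gata1s (difference 1.10, SE 0.14, adjusted p = 6.03e-05), and Bcl11a fell by 1.46 in wild type and 2.66 in Gata1s (adjusted p of the difference 0.000397).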

How the data were processed

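RNA was measured by poly-A selected, directional sequencing of sorted fetal liver cells, per the labels' protocols. The authors deposited 1 table of normalised counts, a signal in which reads per gene were divided by a size factor for each library. The submitters' processing notes name mm9 and mm10 as builds, and Bowtie2, TopHat2, Trim Galore, HTSeq and DESeq2 as tools, without saying which were used for RNA. The smallest value above 0 in a library was taken as 1 read, and 100% of values were then whole reads within a tolerance of 0.001. Of 23420 entries, 27 with date-like names (0.199% to 0.359% of a library's values) were left out, and 1 column that matches no sample was not used. Reads per library ran from 6.96 to 32.8 M over the 20 RNA libraries.

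Values were tested as log2(value + 1) with limma 3.58.1 in R 4.3.3, in the 10720 genes whose mean over the 20 libraries reached 10. The fit held 8 group means and a term for the JC or MS prefix, with 11 residual degrees of freedom, and calls had a Benjamini-Hochberg adjusted p under 0.05. Fold changes are on the log2(value + 1) scale, which can misstate low genes either way. Hbb-bh2 was at 3.63 against 4.88 by edgeR, and Ankrd13b at -6.33 against -4.95. Unless said otherwise, every adjusted p is from this fit. Differences between days and between genotypes were interaction contrasts of it, run as E14.5 minus E12.5 and as wild type minus Gata1s. The fit was also run on simulated reads with few genes changed, the same extra spread for every gene and no prefix effect. These data differ from that setting, so the run does not gauge the error rate here. Alternatives were other pseudocounts, filters and scalings (among them reads outside the globins), count tests of the recovered reads (DESeq2 1.42.0, edgeR 4.0.16), a replicate block, each prefix alone, and each library left out. Counting intervals and the limit of 3 reads cover counting error only.

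Genes described came from a fixed rule: the 12 largest rises and falls with a mean of at least 50 over the 4 libraries, up to 4 called genes each way and the 2 largest in each list, a set of marker genes, and the 5 largest differences each way in each interaction. Of 265 genes meeting the rule, 124 are described, with 2 microRNA entries chosen after their values were seen. The lists hold 908 genes, 903 of them in the table (7 by synonym) and 824 tested. The samples, lists and genes were chosen with earlier results of these data known. Sequences were taken from RefSeq tables of GRCm38.p6. Python 3.11.15, scipy 1.17.1 and matplotlib 3.10.9 were used.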

Additional observations from a re-analysis of the deposited data

Results flagged for a closer look

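In 30 cases the test of a difference between the maturation of wild type E14.5 cells and that of another group was called for a gene described, and that is what singled them out. Differences are log2 changes R3 minus R1/2, E14.5 minus E12.5 for the days and wild type minus Gata1s for the genotypes, from limma.

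Between the days, 8 genes differed. The rises of Bnip3l (1.08) and Slc16a1 (1.11) were larger at E14.5, and the falls of Ncl (-0.65), Bcl11a (-0.68), Zfp36l2 (-0.60) and Slc23a2 (-2.98) went further at E14.5. Glrx (-3.72) and Ccnd1 (-2.39) had the opposite sign at E12.5. Bcl11a was no longer called without any 1 of 7 of the 9 libraries (adjusted p 0.0598 to 0.184), and Zfp36l2 not without E14.5 R1/2 replicate 2 (0.0504), E14.5 R3 replicate 2 (0.0622) or E12.5 R1/2 replicate 1 (0.0594).

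Between the genotypes, 22 genes differed. The difference was positive for the embryonic globins Hbb-y (6.05) and Hba-x (4.32), for Phlda3 (4.42), Bcl11a (1.2), Slc38a5 (1.10), Spn (0.90), Slc16a1 (0.65) and Ccnd3 (0.46). In Gata1s cells Hbb-y was at 1840 and 3537 in R3 and 99224, 9624 and 26700 in R1/2 (-3.12, adjusted p = 0.0106). Hba-x there was at 1173 and 2864 in R3 and 16766, 2949 and 6665 in R1/2 (-1.58, adjusted p = 0.125). The difference was negative for Gata2 (-3.60), Glrx (-3.47), Aldoa (-2.22), Ccnd1 (-1.88), Ccnd2 (-1.70), Zfp36l2 (-1.34), Pgd (-0.98), Gpi1 (-0.96), Add3 (-0.86) and Mxd1 (-0.84). Hbb-y was not called without wild type R1/2 replicate 1 (5.46, adjusted p = 0.0643). Hba-x and Ccnd3 were each lost without any 1 of 6 libraries (adjusted p 0.0504 to 0.166 and 0.0547 to 0.152), and Mxd1 without wild type R1/2 replicate 2 (0.0997), Gata1s R1/2 replicate 3 (0.0559) or Gata1s R3 replicate 2 (0.0962). Without wild type R3 replicate 2, Ccnd2 stood at -1.05.

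Fras1 (5.96), Slc6a3 (5.18), Acsl6 (-4.02) and Spry4 (-3.76) were called between the genotypes on values that rest on the pseudocount. Fras1 had 0 reads in all 5 Gata1s libraries and Slc6a3, a dopamine transporter gene, 1 read over the 5. R3 cells of both genotypes had 0 reads of Spry4, and of Acsl6 1 read in wild type and 0 in Gata1s. None of these 4 was called by edgeR (adjusted p 1, 0.202, 0.929 and 1 for Fras1, Slc6a3, Acsl6 and Spry4), nor was Ccnd3 above (0.0759), and the call of Acsl6 was lost without wild type R1/2 replicate 2 (-3.12, adjusted p = 0.0501).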

How the results depend on the processing

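The 124 genes called in R3 against R1/2 were also called by edgeR and by DESeq2. Most were picked by a small adjusted p or a large change in these same reads, so that agreement was largely built in. Over all 8502 limma calls, edgeR shared 8286 in the same direction and DESeq2 8272. With only the compared groups in the fit, limma called 3523 genes higher and 3737 lower. The main calls were 3738 to 3964 higher and 4039 to 4314 lower when 1 library was left out, 1788 higher and 7375 lower on the globin-free scale, and 2496 higher when at least 2-fold was asked. Single values turned sign for Rps29 (-0.20 with quantile normalisation, -0.048 globin-free), Rpsa (-0.94 and -0.026), Dnmt1 (-0.18 and -0.022) and Ezh2, which is not called (-0.69 and -0.97, -0.32 with upper-quartile scaling, -0.068 in MS libraries, and -0.019 to 0.22 with 1 library left out). The difference between days moved most: 201 lower with no filter, 319 higher and 755 lower with upper-quartile scaling, 146 higher with quantile normalisation, 138 and 2892 globin-free, 195 and 116 with no prefix term, 852 and 532 with DESeq2, 487 lower in MS libraries, and 91 and 102 at least 2-fold. It gave 0 and 0 by limma with only the compared groups (1714 genes at an unadjusted p under 0.05) and 0 and 0 in JC libraries (2519), against 457 and 289 by edgeR on all libraries, and 53 to 1205 higher and 21 to 1507 lower with 1 library left out. The difference between genotypes gave 615 higher on the globin-free scale, 337 and 390 with only the compared groups, 274 and 368 at least 2-fold, and 606 to 1077 higher and 538 to 1048 lower with 1 library left out. JC libraries alone were not run for it, since both Gata1s R3 libraries are MS. Same-numbered wild type E14.5 libraries share the prefix, which the labels do not explain, and no label pairs them by litter or animal (r = 0.315 between their deviations over 2 pairs). With a replicate block the calls were 3958 higher and 4356 lower, 426 and 211 between days and 702 and 670 between genotypes. The causes of these changes were not tested. In the shallowest library, R3 replicate 2, 1 read is worth 4.72 normalised counts, which limits what can be said of genes that fell.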
